A study of Homo sapiens with 27 samples.

Results

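The genes described here are the epidermal growth factor receptor (EGFR) family receptors EGFR, ERBB2 and ERBB3, the ligands AREG, EREG, HBEGF, TGFA, BTC and NRG1, and the receptor inhibitor ERRFI1. They were taken as the rows whose Entrez ID maps to these symbols, which gave 10 of the 24566 genes in the count table, and all 10 passed the filter on low counts in every fit. RNA was sequenced after 48 h from 2 established human cell lines, in 9 groups of 3 replicates, giving 27 libraries. A431 is an epidermoid carcinoma line known for amplification of the EGFR gene, and MDA-MB-231 is a breast adenocarcinoma line of mesenchymal character. The A431 groups were untreated cells, cells with a vehicle control, and cells treated with Compound Kushen Injection (CKI, an extract of 2 medicinal plants, at 1.0 mg/ml), with doxorubicin (an anthracycline that damages DNA), and with CKI plus doxorubicin. MDA-MB-231 cells were left untreated or treated with CKI at the same dose, with 5-fluorouracil (5-FU, which blocks thymidylate synthase, at 10 µg/ml), or with CKI plus 5-FU. What the vehicle contained is not given in the labels, and MDA-MB-231 had no vehicle group. The replicates are labelled as biological, but nothing says that they came from separate cultures, so p-values measure only the spread between these samples.

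Receptors of this family sit in the cell membrane and pair with each other when a ligand binds. EGFR binds AREG, EREG, HBEGF, TGFA and BTC, ERBB3 binds NRG1, and ERBB2 has no known ligand and acts as a partner. The ligands are made as membrane proteins and released by sheddases such as ADAM17, and signalling through ERK induces both further ligands and inhibitors, among them ERRFI1 (MIG6), which binds the EGFR kinase domain. In the epidermis, from which A431 derives, autocrine ligands of this family drive growth.

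On GRCh37, EGFR (Entrez ID 1956) lies at chr7:55086710-55279321 on the forward strand with 28 exons in its canonical transcript, ERBB2 (2064) at chr17:37844167-37886679 (forward, 27 exons) and ERBB3 (2065) at chr12:56470583-56497289 (forward, 28 exons). EREG (2069) at chr4:75230862-75254466 (forward), AREG (374) at chr4:75310853-75320722 (forward) and BTC (685) at chr4:75669969-75719733 (reverse) are neighbours on chromosome 4. HBEGF (1839) is at chr5:139712428-139726188 (reverse), TGFA (7039) at chr2:70674416-70781325 (reverse) and ERRFI1 (54206) at chr1:8064464-8086369 (reverse), and NRG1 (3084) is on chromosome 8. Exons of EGFR overlap the antisense gene EGFR-AS1, those of ERBB2 overlap MIEN1 on the other strand, and those of ERBB3 and NRG1 each overlap a gene on the same strand. The libraries were unstranded, so reads in the overlaps with the other strand cannot be assigned. Strand would not separate reads in the overlaps on the same strand. AREG has a near-identical copy on this build, AREGB, at chr4:75480629-75490486. Of the 1085 windows of 150 bases in the AREG transcript, 935 (86.2%) occur unchanged in the copy, which has no row in the table, so the AREG counts are uncertain.

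Libraries of A431 held between 17757206 and 21756536 counts in total, and those of MDA-MB-231 between 19871048 and 22809339. Untreated MDA-MB-231 replicate 1 stood apart, with a chi-square per degree of freedom of 75.0 and 86.7 against the other replicates, which differed from each other by 2.73. The vehicle replicates differed from each other by 10.4 to 29.9. In each other group this value was at most 5.71. The summed level of 8 epidermoid markers was 5693 to 7585 CPM in A431 and 8.80 to 25.8 CPM in MDA-MB-231. That of 6 mesenchymal markers was 1884 to 3970 CPM in MDA-MB-231 and 286 to 1299 CPM in A431. Of these markers FN1 overlapped between the lines, at 177 to 1131 CPM in A431 and 419 to 1239 CPM in MDA-MB-231. AXL was at 100 to 153 CPM in A431 and 607 to 946 CPM in MDA-MB-231. CDH2 stayed at or under 2.45 CPM and SPARC at or under 3.65 CPM in every library of both lines. Of markers that should be absent, 3 leukocyte genes summed to at most 2.14 CPM, 2 hormone receptor genes to at most 3.45 CPM, and CDH5, an endothelial cadherin, had up to 29.8 CPM in A431 and at most 0.137 CPM in MDA-MB-231.

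Untreated A431 cells differed from untreated MDA-MB-231 cells in 7 of the 10 genes. EGFR, EREG, ERBB3, BTC and ERBB2 were higher in A431, and ERRFI1 and HBEGF were higher in MDA-MB-231. A gene was called differentially expressed (DE) at a Benjamini-Hochberg adjusted p-value under 0.05 over all genes tested and an absolute log2 fold change over 1, by edgeR's quasi-likelihood test. All adjusted p-values here come from that test unless DESeq2 is named. "Rose" and "fell" are used at an adjusted p under 0.05, whatever the size. Between the lines 42.9% of all genes tested were DE, and the count of these genes has to be read against that background. Values are CPM (counts scaled to library size) after TMM normalization over all libraries, and in bulk RNA a difference in level per cell cannot be told apart from a difference in the share of cells that express a gene.

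EGFR had 1970, 1937 and 2037 CPM in the untreated A431 replicates and 225, 250 and 254 CPM in the untreated MDA-MB-231 replicates. The lines did not overlap, and A431 was 8.40-fold higher (log2 fold change 3.07, standard error 0.072, adjusted p = 2.8e-13). These counts measure RNA, and the copy number of EGFR was not measured. ERBB3, the receptor for neuregulins, had 50.7, 49.2 and 47.0 CPM in A431 and 5.58, 7.67 and 7.28 CPM in MDA-MB-231, and was 7.34-fold higher in A431 (adjusted p = 7.3e-12). ERBB2, the partner receptor, had 186, 173 and 185 CPM in A431 against 65.3, 99.4 and 97.5 CPM in MDA-MB-231. The low value is that of replicate 1, the library that stood apart. Its log2 fold change was 1.10 (standard error 0.12) with that library and 0.93 (adjusted p = 4.2e-17) without it. ERBB2 was thus higher in A431 in both cases, but past the fold threshold in the first alone. It was also under that threshold, at 0.99, without A431 untreated replicate 1 or without replicate 3.

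To compare genes with each other, CPM was divided by the length of the canonical transcript, though which isoforms were expressed was not measured. On this scale untreated A431 cells had 200 ± 5.16 CPM per kb of EGFR (SD, n = 3), 39.8 of ERBB2 and 8.72 of ERBB3. Untreated MDA-MB-231 cells had 24.5 ± 1.55 CPM per kb of EGFR, 19.2 of ERBB2 and 1.22 of ERBB3. EGFR was the most abundant of these receptors in both lines, by a wide margin in A431 and by a narrow one in MDA-MB-231, and the order of the receptors was the same.

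**Figure D1:**
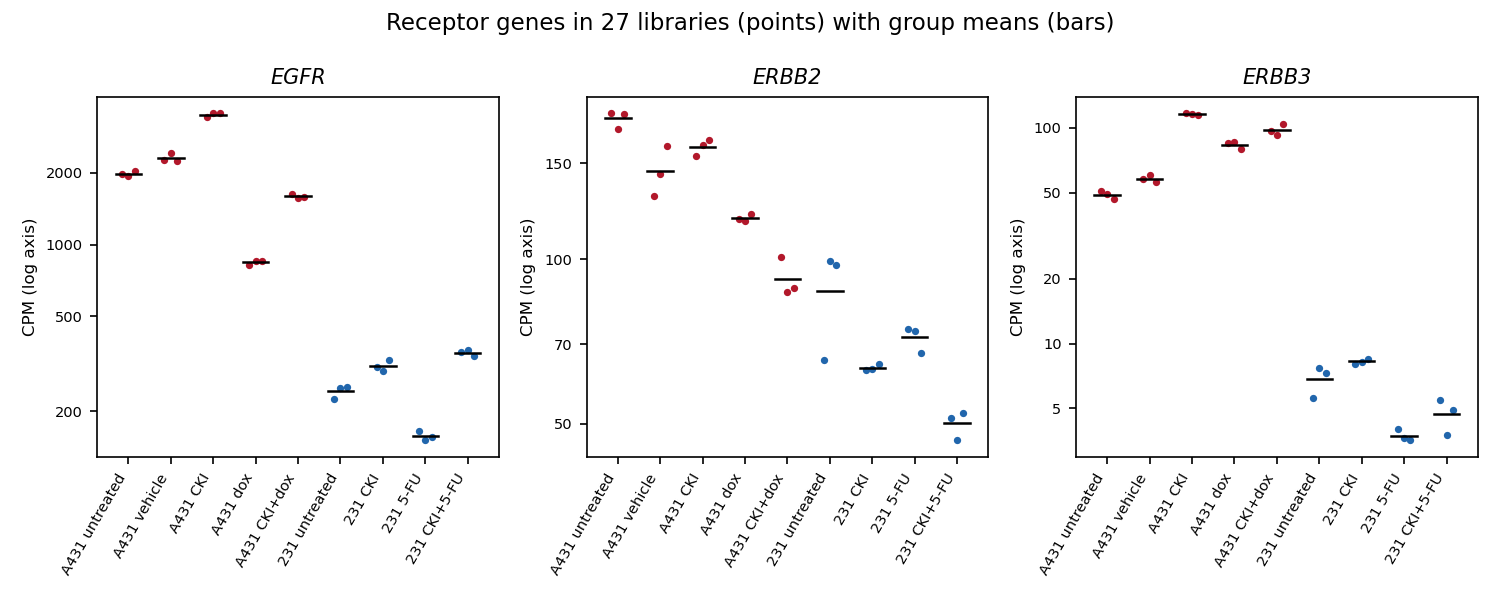
CPM (log axis) of EGFR, ERBB2 and ERBB3 in each of 27 libraries (points), with A431 groups in red, MDA-MB-231 groups in blue and group means as bars. EGFR spans from 151 CPM in MDA-MB-231 treated with 5-FU to 3573 CPM in A431 treated with CKI, and 1 untreated MDA-MB-231 library has less ERBB2 than the other 2.

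Among the ligands, the lines differed in which gene was most abundant. EREG (epiregulin) had 97.2, 108 and 107 CPM in untreated A431 and 11.7, 9.37 and 10.2 CPM in untreated MDA-MB-231, 10.3-fold higher in A431 (log2 fold change 3.36, adjusted p = 1.4e-12). BTC (betacellulin) had 14.7, 16.6 and 14.1 CPM in A431 against 2.87, 1.38 and 2.74 CPM in MDA-MB-231 (2.75, adjusted p = 1.8e-08). HBEGF (heparin-binding EGF-like growth factor, released in response to injury) went the other way, with 35.6, 31.7 and 36.2 CPM in A431 and 97.5, 102 and 106 CPM in MDA-MB-231 (log2 fold change -1.52, adjusted p = 4.3e-10). AREG (amphiregulin) and TGFA (transforming growth factor alpha) were lower in A431 by less than the fold threshold, with log2 fold changes of -0.58 (adjusted p = 0.00081) and -0.60 (adjusted p = 9.4e-05). NRG1 (neuregulin 1) had 38.3 to 40.8 CPM in A431 and 39.3 to 43.3 CPM in MDA-MB-231, which overlapped, and its log2 fold change of -0.05 (standard error 0.067) did not pass the test (adjusted p = 0.49).

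**Figure D2:**
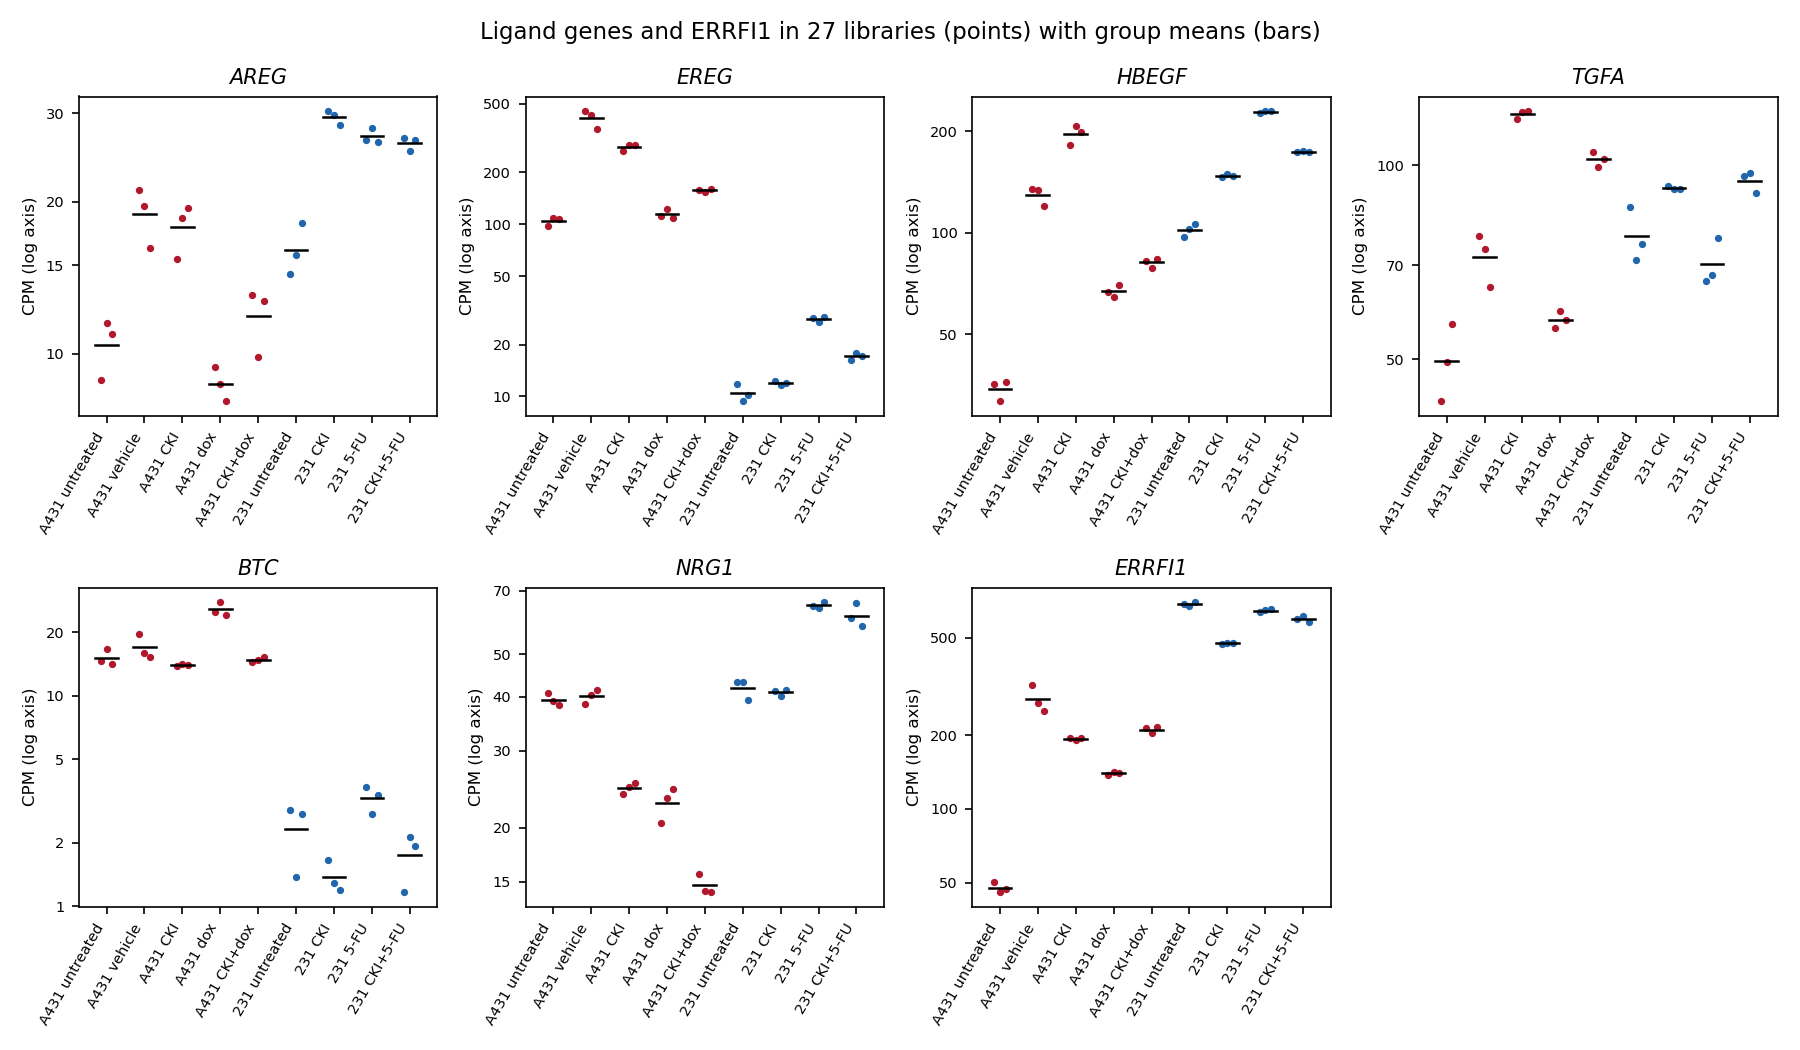
CPM (log axis) of the 6 ligand genes and ERRFI1 in each of 27 libraries (points), with A431 groups in red, MDA-MB-231 groups in blue and group means as bars. EREG, HBEGF and ERRFI1 are lowest among A431 groups in untreated cells, and the vehicle and CKI groups lie well above them.

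Expressed as shares of the summed CPM per kb of the 6 ligands, EREG made up 33.8% ± 0.695 (SD, n = 3) of ligand RNA in untreated A431 and 2.76% ± 0.322 in untreated MDA-MB-231. HBEGF made up 22.0% ± 2.13 in A431 and 52.9% ± 1.82 in MDA-MB-231, where it was the most abundant. These shares depend on the canonical lengths, from 1234 bases for AREG to 11983 for NRG1, and on the uncertain AREG counts. The summed level of the ligands was close in both lines, at 66.7 ± 3.60 CPM per kb in A431 and 81.8 ± 2.55 in MDA-MB-231. In vehicle-treated A431 cells the sum was 187 ± 18.4 and EREG held 47.8%, and in CKI-treated A431 cells the sum was 195 ± 10.4 and HBEGF held 42.6%. In MDA-MB-231 the sum was 116 ± 0.973 with CKI, 149 ± 1.75 with 5-FU and 127 ± 0.998 with both, and HBEGF held 54.3%, 65.3% and 57.8% of it. HBEGF was therefore the leading ligand in every MDA-MB-231 group. In A431 treated with doxorubicin EREG held 28.8% and HBEGF 33.2%, and with CKI plus doxorubicin 31.0% and 31.5%.

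Promoter sequences of RefSeq (reference table on GRCh38) were matched to 8 of the 10 genes, with none for ERBB3 and NRG1, and the 250 bases before the start are shown for EREG and HBEGF, which were DE and higher together with 3 treatments described further on, and for AREG, whose start is duplicated. They are placed on GRCh37 by an exact match. Capitals mark every match, on either strand, to the cyclic AMP response element TGACGTCA, the core GCGTG of the xenobiotic response element and the GC box GGGCGG. The AP-1 motif TGANTCA was also searched, and none of the 3 sequences holds it.
AREG, chr4:75310603-75310852, forward strand: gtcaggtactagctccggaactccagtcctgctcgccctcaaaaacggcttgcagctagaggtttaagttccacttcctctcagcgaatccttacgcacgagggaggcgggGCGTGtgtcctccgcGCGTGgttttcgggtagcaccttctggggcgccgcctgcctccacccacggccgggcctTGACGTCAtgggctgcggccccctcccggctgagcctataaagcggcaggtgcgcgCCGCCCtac
EREG, chr4:75230612-75230861, forward strand: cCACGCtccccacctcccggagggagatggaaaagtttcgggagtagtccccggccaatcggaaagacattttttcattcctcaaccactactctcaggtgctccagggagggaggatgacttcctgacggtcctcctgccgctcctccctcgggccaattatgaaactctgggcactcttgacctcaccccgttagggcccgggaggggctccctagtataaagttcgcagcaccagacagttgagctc
HBEGF, chr5:139726189-139726438, reverse strand: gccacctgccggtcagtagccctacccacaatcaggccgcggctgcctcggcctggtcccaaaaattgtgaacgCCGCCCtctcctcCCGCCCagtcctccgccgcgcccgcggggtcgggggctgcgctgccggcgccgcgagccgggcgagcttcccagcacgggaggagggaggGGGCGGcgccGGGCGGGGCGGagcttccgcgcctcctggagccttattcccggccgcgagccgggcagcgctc

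The AREG stretch occurs 2 times on chromosome 4, at the start of AREG and, unchanged, at chr4:75480379-75480628 before AREGB, so the duplication covers the promoter as well as the transcript. Counting the base before the start as -1, AREG has a TGACGTCA beginning at -65, which was in 1.65% of all 35116 promoters of this length. AREG also has 2 copies of GCGTG, at -139 and -124, where 32.2% of promoters held at least 1 copy. EREG has 1 copy of GCGTG, read on the other strand, at -249. HBEGF has 5 GC boxes, of which those at -63 and -58 overlap by a base, where 42.6% of promoters held at least 1 GC box. The 3 sequences thus share no motif of those searched, apart from the xenobiotic core in AREG and EREG and the GC box in AREG and HBEGF. A match describes the letters alone.

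ERRFI1, the feedback inhibitor, was the member that differed most between the lines. It had 50.2, 45.7 and 47.1 CPM in untreated A431 and 689, 672 and 699 CPM in untreated MDA-MB-231, a log2 fold change of -3.81 (standard error 0.066, adjusted p = 2.2e-14). Per kilobase this was 15.4 CPM per kb in A431 and 222 in MDA-MB-231, so that ERRFI1 RNA was far below EGFR in A431 and far above it in MDA-MB-231. Other genes of the pathway are read against all genes tested, of which 42.9% were DE, 22.5% higher in A431 and 20.4% lower. Of 15 listed negative regulators 9 were DE and all 9 were lower in A431, with a median log2 fold change of -1.55 against 0.09 over all genes tested. SPRY2 (-5.51) and SPRY1 (-3.03), which restrain ERK signalling, had the smallest adjusted p. Of 11 listed ERK-responsive genes 6 were DE, all lower in A431, with ETV1 at -6.29 and PHLDA1 at -1.59. Among 11 receptor adaptors 3 were DE and lower (GAB2 -5.28, SOS2 -1.81), and among 9 sheddases and their regulators 3 were DE and higher (ADAM15 1.30, FRMD8 1.16), so that in both lists the share of DE genes, counting both directions, was under that of all genes. In untreated MDA-MB-231 FRMD8 was at 32.7, 52.8 and 53.1 CPM and ADAM15 at 164, 240 and 248 CPM, so the lowest library stood apart in both. Their values without that library are not given here.

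When vehicle-treated A431 cells were compared to untreated MDA-MB-231 cells, the differences between the lines in HBEGF and AREG turned over. HBEGF was then higher in A431 (log2 fold change 0.40, adjusted p = 0.0002), as was AREG (0.30, adjusted p = 0.042), and ERBB2 dropped to 0.79. EGFR, ERBB3, EREG, BTC and ERRFI1 kept their direction and call.

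**Figure D3:**
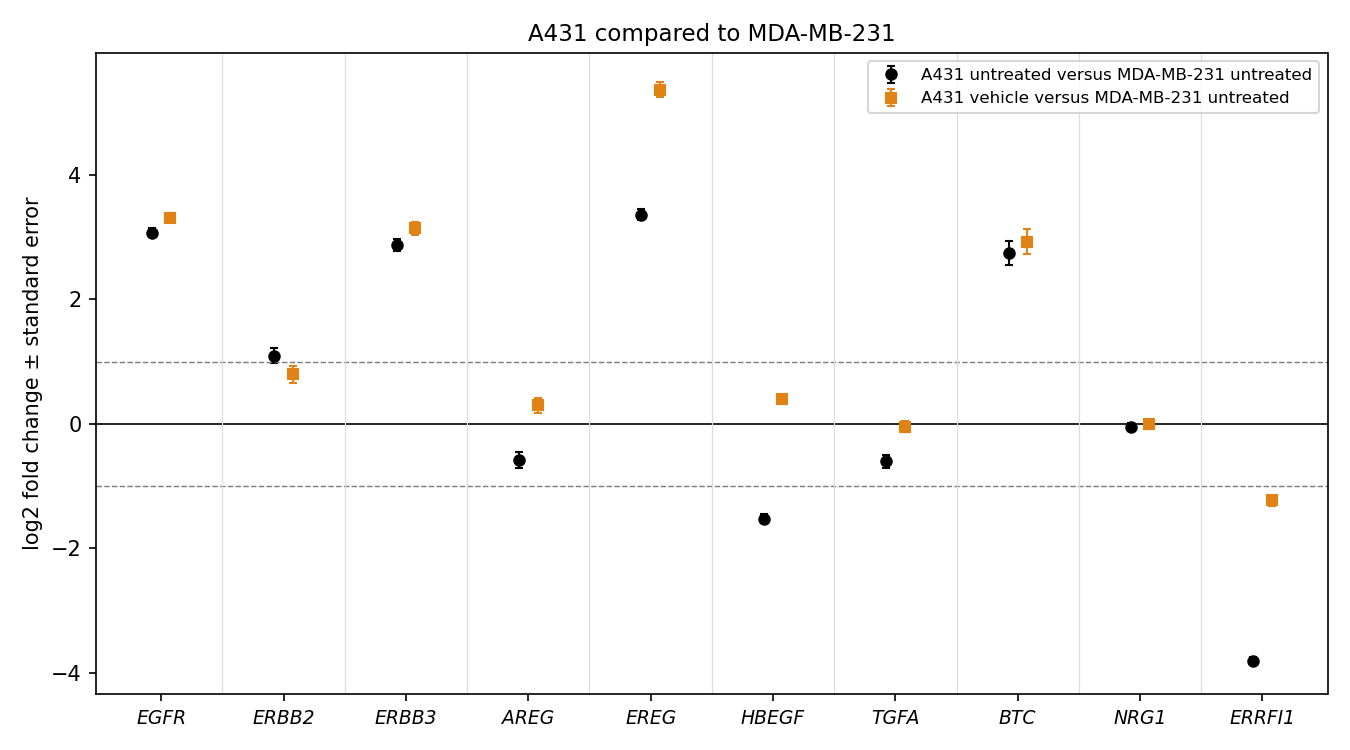
Log2 fold change of A431 over MDA-MB-231 (vertical axis, with standard error) for the 10 genes, with untreated A431 cells (black) or vehicle-treated A431 cells (orange) compared to untreated MDA-MB-231 cells. Dashed lines mark a log2 fold change of 1 and -1. HBEGF lies at -1.52 with the first control and 0.40 with the second, while EGFR lies above the upper line with both.

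Ordered by mean CPM over the 9 groups, EGFR ran from 3516 ± 83.3 (SD, n = 3) in A431 treated with CKI, through 2313 ± 99.1 with vehicle, 1982 ± 51.1 untreated, 1596 ± 31.6 with CKI plus doxorubicin and 843 ± 17.5 with doxorubicin. It continued in MDA-MB-231 at 352 ± 10.6 with CKI plus 5-FU, 311 ± 16.6 with CKI, 243 ± 15.4 untreated and 157 ± 7.07 with 5-FU. No 2 neighbours in this order overlapped with TMM scaling. The TMM factors ran from 0.883 in an untreated A431 library to 1.11 in a library with CKI plus doxorubicin, so overlap between groups depends on the scaling. The 5 A431 groups all lay above the 4 MDA-MB-231 groups, and the same held for ERBB3, EREG and BTC. The ERBB2 means had that order too, but A431 with CKI plus doxorubicin (92.2 ± 7.60) overlapped untreated MDA-MB-231 (87.4 ± 19.1). For ERRFI1 the 4 MDA-MB-231 groups all lay above the 5 A431 groups, from 687 ± 13.2 CPM untreated down to 474 ± 1.89 with CKI, and A431 ran from 281 ± 36.6 with vehicle to 47.7 ± 2.32 untreated. In HBEGF, TGFA and AREG the groups of the lines intermingled. The share of all genes whose groups keep the lines apart was not counted. Between the untreated groups 42.9% of all genes tested were DE. HBEGF was highest in MDA-MB-231 treated with 5-FU (229 ± 1.37), followed by A431 treated with CKI (196 ± 12.9), and lowest in untreated A431 (34.5 ± 2.46), with no overlap between neighbours. In TGFA the neighbours untreated MDA-MB-231 (77.7 ± 7.69), vehicle-treated A431 (72.2 ± 6.71) and MDA-MB-231 with 5-FU (70.3 ± 5.99) overlapped. In NRG1 the 4 groups between 39.4 and 42.0 CPM overlapped in sequence, namely both untreated groups, vehicle-treated A431 and CKI-treated MDA-MB-231.

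In A431, the vehicle control changed 3 of the 10 genes, ERRFI1, EREG and HBEGF, all upward, where 2.54% of all genes tested were DE. ERRFI1 went from 50.2, 45.7 and 47.1 CPM untreated to 321, 271 and 250 CPM with vehicle (log2 fold change 2.58, standard error 0.076, adjusted p = 2.9e-17). EREG reached 454, 429 and 358 CPM (2.01, adjusted p = 3.0e-15) and HBEGF 135, 134 and 120 CPM (1.93, adjusted p = 1.4e-15). Every vehicle library lay above every untreated library in all 3 genes, and the share of all genes without overlap was not counted. AREG (0.88), TGFA (0.55), ERBB3 (0.27) and EGFR (0.24) rose by less, ERBB2 fell (-0.30), and BTC and NRG1 did not pass the test (adjusted p = 0.15 and 0.64). Of the negative regulators 2 of 15 were DE, the ERK phosphatases DUSP5 (2.53) and DUSP6 (1.38), and of the ERK-responsive genes 2 of 11, the transcription factors FOS (2.503) and EGR1 (2.82). At an adjusted p under 0.05 alone, which 42.5% of all genes tested passed, 5 of 11 adaptors rose and 1 fell, and 3 of 9 sheddases and regulators rose and 3 fell.

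The vehicle comparison moved with base composition. Over all genes tested, Spearman's rho of the log2 fold change with GC content was -0.58 and with transcript length 0.31, as a description. The part of GC content in these changes was not tested. In a fit with offsets for both, ERRFI1 was at 2.38 (2.58 without them), HBEGF at 1.94 (1.93) and EREG at 1.66 (2.01), and the same 3 genes were DE. With these offsets EGFR dropped to 0.07, and NRG1 went from 0.05 to -0.26 (adjusted p = 0.0047).

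CKI at 48 h raised 5 of the 10 genes in A431 compared to untreated cells, HBEGF, ERRFI1, EREG, TGFA and ERBB3, where 22.4% of all genes tested were DE. HBEGF went to 182, 207 and 199 CPM (log2 fold change 2.43, standard error 0.071, adjusted p = 3.4e-18), ERRFI1 to 194, 190 and 195 CPM (1.94, adjusted p = 3.6e-16) and EREG to 265, 287 and 290 CPM (1.35, adjusted p = 2.6e-13). TGFA, at 43.0, 49.6 and 56.7 CPM untreated, reached 118, 121 and 121 CPM (1.19, adjusted p = 7.4e-12), and ERBB3 reached 117, 115 and 114 CPM (1.16, adjusted p = 4.5e-14). EGFR itself rose to 3421, 3573 and 3555 CPM, the highest of all groups, but by less than the fold threshold (0.75, adjusted p = 2.6e-12). AREG rose (0.69), ERBB2 fell (-0.25) and NRG1 fell from 38.3 to 40.8 CPM to 23.9 to 25.3 CPM (-0.75, adjusted p = 2.7e-09). Of the 5 EGFR ligands 4 rose, where 5291 of all 15881 genes tested rose and 5357 fell. The other EGFR ligand, BTC, at 13.8 to 14.1 CPM against 14.1 to 16.6 CPM, had a log2 fold change of -0.19 and did not pass the test (adjusted p = 0.088).

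Among further genes of the pathway, counts are read against the 12% of all genes tested that were DE and higher with CKI in A431. Of the receptor adaptors 5 of 11 were DE and higher, with GAB1 at 2.03 and SOS2 at 1.38. ADAM17, a sheddase of ligands of this family, was the only one of 9 sheddases and regulators that was DE (1.70). Of the negative regulators 4 of 15 were DE and higher (DUSP5 2.58, DUSP4 1.39), and of the ERK-responsive genes 2 of 11 (EGR1 3.18, FOS 2.64). DUSP5, EGR1 and FOS had log2 fold changes of 2.53, 2.82 and 2.503 with the vehicle control.

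Compared to the vehicle control instead, CKI changed none of the 10 genes past both thresholds by edgeR, where 19.5% of all genes tested were DE. At an unadjusted p under 0.05, 8 of the 10 differed, as did 67.7% of all genes tested. ERBB3 (0.90, adjusted p = 4.1e-12), TGFA (0.64), EGFR (0.51, adjusted p = 2.5e-09) and HBEGF (0.50) were higher with CKI than with vehicle, and NRG1 (-0.80), EREG (-0.66, adjusted p = 4.3e-08), ERRFI1 (-0.64, adjusted p = 2.9e-08) and BTC (-0.37) were lower. EREG and ERRFI1 thus had opposite directions with CKI according to the control used. AREG (-0.19) and ERBB2 (0.05) did not pass the test (adjusted p = 0.18 and 0.51). ERBB3, TGFA, EGFR, HBEGF and NRG1 moved in the same direction with CKI against both controls. Whether CKI was given in the labelled vehicle is not stated.

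Doxorubicin changed 2 of the 10 genes compared to untreated A431 cells, lowering EGFR and raising ERRFI1, where 37.3% of all genes tested were DE. DESeq2 called 3, with HBEGF at 1.00 as the other. EGFR went to 823, 855 and 851 CPM, below every untreated library (log2 fold change -1.29, standard error 0.049, adjusted p = 1.5e-16). ERRFI1 went to 138, 141 and 140 CPM (log2 fold change 1.496, adjusted p = 2.1e-14). HBEGF rose from 31.7 to 36.2 CPM to 64.6 to 70.2 CPM (0.91, adjusted p = 6.8e-11), ERBB3 rose (0.72), BTC rose to 24.3 to 27.8 CPM (0.71, adjusted p = 3.8e-07), NRG1 fell (-0.84), ERBB2 fell (-0.66) and AREG fell (-0.31, adjusted p = 0.044). The AREG libraries overlapped between the groups, and the fall did not pass the test when untreated replicate 2 or 3 or doxorubicin replicate 2 or 3 was left out (-0.25 to -0.32), nor by DESeq2 (-0.22, adjusted p = 0.15), and with library size alone AREG was at 0.031. EREG (0.08) and TGFA (0.16) did not pass the test (adjusted p = 0.33 and 0.085). Scaling mattered here. With library size alone in place of TMM, EGFR was at -0.94 and HBEGF, ERBB3 and BTC at 1.26, 1.06 and 1.05. Of the sheddases and regulators 2 of 9 were DE, both lower (ADAM10 -1.28, RHBDF2 -1.12). Of the negative regulators DUSP4 (1.68) and DUSP5 (1.964) were among 3 DE and higher and DUSP7 (-1.46) was DE and lower, and of the ERK-responsive genes EPHA4 (3.61) was DE and higher, and PHLDA1 (-1.76) and ETV1 (-1.002) were DE and lower.

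Compared to the vehicle control, doxorubicin lowered 5 of the 10 genes, where 38.5% of all genes tested were DE. EREG (-1.93, adjusted p = 3.5e-16), EGFR (-1.53, adjusted p = 8.6e-18), AREG (-1.19), ERRFI1 (-1.08) and HBEGF (-1.02) were DE. Of these, EGFR fell against both controls, the fall of AREG against untreated cells did not hold up as given above, and HBEGF and ERRFI1 rose against untreated cells and fell against vehicle.

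**Figure D4:**
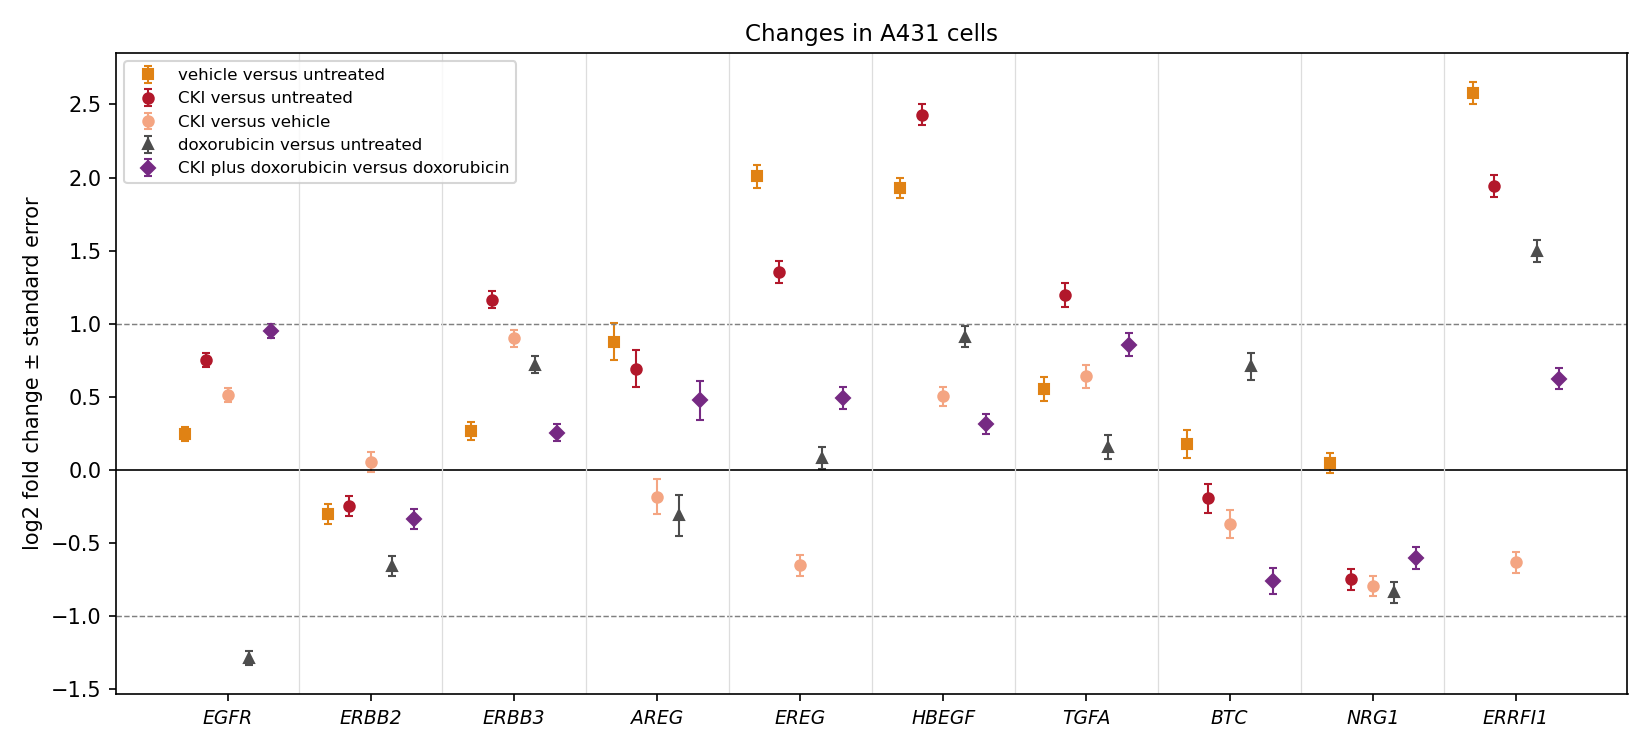
Log2 fold changes with standard errors for the 10 genes in 5 comparisons within A431, with dashed lines at 1 and -1. The squares (vehicle compared to untreated) and dark circles (CKI compared to untreated) both lie above 1 for EREG, HBEGF and ERRFI1, and the light circles (CKI compared to vehicle) lie within 1 and -1 for all 10 genes.

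CKI added to doxorubicin changed none of the 10 genes past both thresholds by edgeR, where 14.9% of all genes tested were DE, and DESeq2 called 0 as well. All 10 passed an adjusted p of 0.05, as did 63.6% of all genes tested. EGFR rose from 823 to 855 CPM to 1632, 1572 and 1583 CPM (log2 fold change 0.95, standard error 0.048, adjusted p = 1.2e-13), and TGFA rose from 55.9 to 59.4 CPM to 99.4 to 105 CPM (0.86, adjusted p = 3.2e-09). ERRFI1 (0.62), EREG (0.49), AREG (0.47), HBEGF (0.31) and ERBB3 (0.25) also rose, and BTC (-0.76), NRG1 (-0.60) and ERBB2 (-0.34) fell. Of the adaptors 10 of 11 rose at an adjusted p under 0.05, against 33.8% of all genes tested, none of them past the fold threshold.

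Doxorubicin added to CKI lowered HBEGF and EGFR, where 25.7% of all genes tested were DE. HBEGF fell from 182 to 207 CPM to 82.7, 78.8 and 83.9 CPM (log2 fold change -1.21, standard error 0.066, adjusted p = 2.4e-13), and EGFR fell by 1.09 on the log2 scale (adjusted p = 5.7e-15). A further 6 genes fell by less, from EREG (-0.78), ERBB2 (-0.75) and NRG1 (-0.69) to AREG (-0.53), ERBB3 (-0.19) and TGFA (-0.18), and ERRFI1 rose (0.18, adjusted p = 0.025). Of all 15881 genes tested, 5526 fell and 6108 rose at an adjusted p under 0.05. The changes in TGFA and ERRFI1 did not pass the test when 1 of several libraries was left out. With library size alone ERBB3 (0.015) and TGFA (0.025) changed sign, and with the GC and length offsets ERRFI1 was at -0.0006. The EGFR call rests on a narrow margin, since it was -0.88 with library size alone and -0.995 with the GC and length offsets. Of the sheddases and regulators 3 of 9 were DE and lower, with ADAM10 at -1.57 and ADAM17 at -1.03, and among the ERK-responsive genes FOS was at -3.69.

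The interaction of CKI and doxorubicin, which asks whether the change with CKI was the same with and without doxorubicin, was past both thresholds in HBEGF and ERRFI1, where 19.5% of all genes tested were DE. At an adjusted p under 0.05 alone 7 of the 10 differed, as did 57.4% of all genes tested. For HBEGF the change with CKI was 2.43 without doxorubicin and 0.31 with it, an interaction of -2.12 (standard error 0.097, adjusted p = 6.1e-14). For ERRFI1 it was 1.94 and 0.62, an interaction of -1.32 (adjusted p = 2.3e-10). ERBB3 (-0.91), EREG (-0.86), BTC (-0.57) and TGFA (-0.34) had smaller negative interactions at an adjusted p under 0.05, and EGFR a positive one (0.20, adjusted p = 0.016). With vehicle in place of untreated cells the interaction was -0.19 for HBEGF (adjusted p = 0.084), 1.26 for ERRFI1 and 1.15 for EREG (adjusted p = 3.1e-10 and 3.7e-09). Among the pathway lists, 5 of 15 negative regulators had a negative interaction past both thresholds, with DUSP5 at -2.39, and of 11 ERK-responsive genes 3 had a negative interaction past both, among them FOS (-2.72) and EGR1 (-2.46), and 2 a positive one, FOSL1 (1.41) and ETV1 (1.08). These pathway values take untreated cells as the control. With vehicle over untreated cells, DUSP5, FOS and EGR1 had log2 fold changes of 2.53, 2.503 and 2.82, so their interactions depend on the control too.

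In MDA-MB-231, CKI changed none of the 10 genes past both thresholds by edgeR, where 5.96% of all genes tested were DE. DESeq2 also called 0, and 8 of the 10 had an unadjusted p under 0.05, as did 45.5% of all genes tested. At an adjusted p under 0.05, 4 rose and 2 fell, where 36.2% of all genes tested passed. AREG rose from 14.4, 15.7 and 18.2 CPM to 30.3, 29.7 and 28.4 CPM (log2 fold change 0.87, standard error 0.085, adjusted p = 1.3e-05), and HBEGF from 97.5, 102 and 106 CPM to 147, 149 and 147 CPM (0.53, adjusted p = 1.1e-05). EGFR rose to 308, 296 and 328 CPM (0.35, adjusted p = 0.0012) and TGFA rose (0.25, adjusted p = 0.03), a change that did not pass the test when any 1 of untreated replicates 2 and 3 or the 3 CKI replicates was left out (0.19 to 0.26). ERRFI1 fell from 689, 672 and 699 CPM to 472, 476 and 474 CPM (-0.54, adjusted p = 5.2e-06), the reverse of its direction in A431 against untreated cells. ERBB2 fell (-0.47, adjusted p = 0.014). BTC, EREG, ERBB3 and NRG1 did not pass the test, with log2 fold changes of -0.74, 0.20, 0.27 and -0.04. When untreated replicate 1 was left out, ERBB2 was at -0.64 (adjusted p = 5.6e-10), EREG passed the test at 0.29 (adjusted p = 0.012), and none of the 10 genes was past both thresholds. When untreated replicate 2 was left out, ERBB2 was at -0.37 (adjusted p = 0.056) and BTC alone was past both, at -1.02, from 24 to 56 counts per library in these groups. Of the pathway genes listed, ADAM12 (1.86) and DUSP5 (1.05) were DE.

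5-FU raised 2 of the 10 genes in MDA-MB-231, EREG and HBEGF, where 13.3% of all genes tested were DE. EREG went from 11.7, 9.37 and 10.2 CPM to 28.4, 27.1 and 28.9 CPM (log2 fold change 1.44, standard error 0.086, adjusted p = 8.5e-08) and HBEGF to 227, 230 and 229 CPM (1.17, adjusted p = 8.8e-09). No treated library overlapped an untreated one in either gene, and the share of all genes without overlap was not counted. AREG (0.75, adjusted p = 1.3e-05) and NRG1 (0.63, adjusted p = 4.5e-06) also rose. EGFR fell to 165, 151 and 156 CPM (-0.62, adjusted p = 6.5e-06) and ERBB3 fell from 5.58 to 7.67 CPM to 3.55 to 4.01 CPM (-0.87, adjusted p = 0.00046). BTC (0.51), ERBB2 (-0.27), TGFA (-0.14) and ERRFI1 (-0.08) did not pass the test. EREG and HBEGF were also the 2 called without untreated replicate 1, where ERBB2 passed the test at -0.45 (adjusted p = 9.0e-08) and ERBB3 was at -0.996. Of the ERK-responsive genes, FOS was DE and lower (-3.80) and IER3 DE and higher (1.12), and of the negative regulators DUSP5 (1.18) was DE and higher, and SPRY1 (-1.61) and DUSP4 (-1.13) DE and lower. The sheddase ADAM10 (-1.06) and the sheddase regulator RHBDF2 (-1.44) were DE and lower with 5-FU.

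CKI added to 5-FU raised EGFR, the 1 gene of the 10 past both thresholds, where 9.77% of all genes tested were DE. EGFR went from 165, 151 and 156 CPM to 354, 361 and 340 CPM (log2 fold change 1.16, standard error 0.065, adjusted p = 9.5e-08), above every untreated library as well. TGFA rose (0.43), and EREG (-0.71, adjusted p = 2.6e-05), HBEGF (-0.39, adjusted p = 5.1e-05), ERBB2 (-0.52) and BTC (-0.90, adjusted p = 0.016) fell. EREG had 16.4, 17.9 and 17.3 CPM with both agents, between the untreated and the 5-FU groups. AREG, NRG1, ERBB3 and ERRFI1 did not pass the test. BTC did not pass the test without replicate 1 of either group (-0.81 and -0.68), and it passed both thresholds without 5-FU replicate 2 (-1.01) or without CKI plus 5-FU replicate 2 (-1.07). FOS (3.47) and EGR1 (1.19) of the ERK-responsive genes, ADAM12 (1.97) and SPRY1 (1.21) were DE and higher.

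5-FU added to CKI changed none of the 10 genes past both thresholds by edgeR, where 3.81% of all genes tested were DE and where the log2 fold change had a Spearman's rho of -0.52 with GC content over all genes. DESeq2 also called 0, and 7 of the 10 had an unadjusted p under 0.05, as did 50.4% of all genes tested. At an adjusted p under 0.05, which 42.1% of all genes tested passed, NRG1 (0.60, adjusted p = 3.2e-05), EREG (0.53), ERRFI1 (0.34), HBEGF (0.24) and EGFR (0.19) rose and ERBB3 fell (-0.80, adjusted p = 0.0013). The interaction of CKI and 5-FU likewise passed both thresholds in none of the 10 by edgeR, where 6.84% of all genes tested were DE. DESeq2 also called 0, and 5 of the 10 had an unadjusted p under 0.05, near the 42.8% of all genes tested that did. EGFR had a positive interaction (0.81, adjusted p = 7.4e-05), its change with CKI being 0.35 without 5-FU and 1.16 with it, and so had ERRFI1 (0.42, adjusted p = 0.00063). HBEGF (-0.93, adjusted p = 5.0e-06), AREG (-0.91) and EREG (-0.91) had negative ones. AREG and EREG crossed the fold threshold with the GC and length offsets, at -1.02 and -1.08, and AREG did so without untreated replicate 3, at -1.01.

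**Figure D5:**
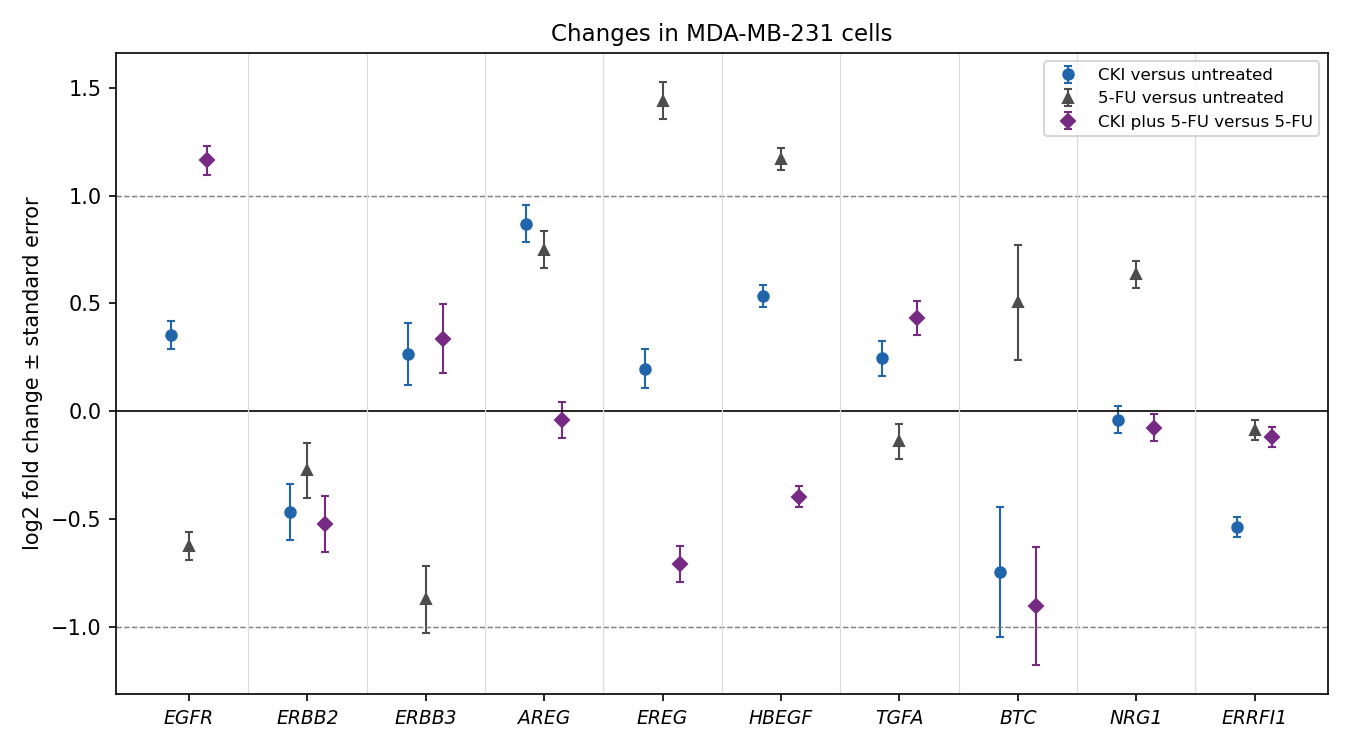
Log2 fold changes with standard errors for the 10 genes in 3 comparisons within MDA-MB-231, with dashed lines at 1 and -1. EREG (1.44) and HBEGF (1.17) lie above the upper line with 5-FU (triangles), and EGFR is at 0.35 with CKI alone (circles) and 1.16 with CKI added to 5-FU (diamonds).

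The change with CKI was compared between the lines in a fit that held the untreated and the CKI libraries of each. It was more positive in A431 past both thresholds in ERRFI1, HBEGF and EREG, where 18.5% of all genes tested were DE. At an adjusted p under 0.05 alone 7 of the 10 differed, as did 47% of all genes tested. DESeq2 called 4, with TGFA at 1.02 as the other. ERRFI1 had a difference of 2.49 (standard error 0.085, adjusted p = 1.2e-09), HBEGF of 1.90 (adjusted p = 2.8e-08) and EREG of 1.16 (adjusted p = 7.7e-06). TGFA (0.96, adjusted p = 9.6e-05), ERBB3 (0.90, adjusted p = 8.4e-05) and EGFR (0.41, adjusted p = 0.0032) differed in the same direction, and NRG1 in the other (-0.70, adjusted p = 5.0e-05). AREG rose with CKI in both lines and its difference did not pass the test (-0.17, standard error 0.17, adjusted p = 0.45). ERBB3 passed both thresholds as well when MDA-MB-231 untreated replicate 1 or A431 untreated replicate 1 was left out (1.02 each). TGFA did so, at 1.02 to 1.15, when A431 untreated replicate 2 or 3, A431 CKI replicate 1 or MDA-MB-231 untreated replicate 2 was left out. With vehicle-treated in place of untreated A431 cells, the difference was -0.09 for ERRFI1 (adjusted p = 0.58) and -0.03 for HBEGF (adjusted p = 0.88), EREG was at -0.85 (adjusted p = 0.00069), and AREG was the 1 gene past both thresholds, at -1.05. Since MDA-MB-231 had no vehicle group, a difference in the response to CKI and one in the response to the vehicle cannot be told apart.

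Of 6 other ErbB genes listed, NRG4, a ligand of ERBB4, had 13.9 to 16.8 CPM in untreated A431 and 0.470 to 0.597 CPM in untreated MDA-MB-231 (log2 fold change 4.83, adjusted p = 1.5e-11). EGF was the reverse, at 1 or 2 counts per library in untreated A431 and 38 to 43 in untreated MDA-MB-231. In A431, CKI raised EGF to 20 to 32 counts per library, NRG2 from 1.56 to 1.74 CPM to 8.08 to 8.31 CPM (log2 fold change 2.21, adjusted p = 1.8e-11) and ERBB4 from 6 to 14 counts to 50 to 63 counts (2.11, adjusted p = 8.8e-07). In the vehicle libraries NRG2 was at 1.21 to 1.53 CPM, ERBB4 at 10 to 14 counts and EGF at 2 to 4 counts, so that these genes lay with the untreated group, unlike HBEGF, EREG and ERRFI1. NRG2 was at 0.763 to 1.26 CPM with CKI plus doxorubicin, and its interaction was -3.38 (adjusted p = 1.7e-10). With doxorubicin alone, 4 of the 5 genes of this list that were tested were DE, where 37.3% of all genes tested were. EGF was then at 8 to 16 counts, ERBB4 at 20 to 35 counts and NRG4 at 4.82 to 5.35 CPM. In MDA-MB-231, NRG2 was at 1.57 to 3.63 CPM untreated, 0.364 to 0.995 CPM with 5-FU and 2.70 to 3.54 CPM with CKI plus 5-FU. EPGN reached at most 24 counts and NRG3 at most 7 in any library.

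As a description, the genes most like EGFR by Pearson's r of log2 CPM over all 27 libraries were LRP11 (r = 0.992), PYGL (0.991) and GALK2 (0.989), a likeness to which the difference between the lines contributes. Within the 15 A431 libraries, the genes most like EREG were NCOA7 (0.986), EGR3 (0.985) and MAP3K8 (0.967), BNIP5 and SOX9 were among those most like HBEGF (0.992 each), and those most like AREG were APAF1, DUSP10 and ASXL2 (0.963, 0.960 and 0.949). These libraries share their groups and their scaling, so the points are not independent.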

How the data were processed

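The authors deposited raw counts per gene for 27 libraries. Per the labels, reads were trimmed with Trim Galore 0.3.7 and aligned to hg19 with STAR 2.5.3a, and libraries were unstranded. The counting tool and its annotation are not given in the sources used here. Of 24566 rows, 1597 had no count, 24422 Entrez IDs matched a symbol, and 99.5% had a GC content on GRCh37. Counts were tested with edgeR 4.0.16 in R 4.3.3 (TMM, filterByExpr, glmQLFit, glmQLFTest), with all libraries of a line in the fit, or the untreated and CKI libraries of both. A gene was called where its adjusted p was under 0.05 and its log2 fold change beyond 1 or -1, the thresholds of the study. Log2 CPM used a prior count of 2. All 10 members were named. From each fixed list, the text names at most the 2 called genes of smallest adjusted p in each direction among those whose groups do not overlap. The members and lists were chosen with earlier results of these data known. Alternatives were DESeq2 1.42.0, RLE factors, library size alone, filters on low counts, the libraries in the fit, the vehicle as control, a replicate block, offsets for GC content and length (lowess, span 0.3), and leaving out each library. Comparisons with the vehicle control share its libraries, as those with untreated cells do. Fits were tested on simulated data. The dose of doxorubicin is left out, since the labels give more than one. A gene of like pattern to HBEGF is not reported here.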

Additional observations from a re-analysis of the deposited data

Results flagged for a closer look

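In 5 cases the change with CKI differed between 2 settings by a test of the difference itself. These are 2 of the 10 genes for CKI and doxorubicin, where 19.5% of all genes tested were past both thresholds, and 3 of the 10 for the cell lines, where 18.5% were, so neither count is far from its background. Within A431, the change with CKI was smaller with doxorubicin than without it for HBEGF (interaction -2.12) and ERRFI1 (-1.32). Between the lines, it was more positive in A431 than in MDA-MB-231 for EREG (1.16), HBEGF (1.90) and ERRFI1 (2.49). When vehicle-treated A431 cells served as the control, the interaction with doxorubicin was -0.19 for HBEGF and 1.26 for ERRFI1, and the difference between the lines was -0.85 for EREG, -0.03 for HBEGF and -0.09 for ERRFI1. The vehicle libraries had changes that moved with GC content, and their part in these values was not tested.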

How the results depend on the processing

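The control used for A431 mattered most. With vehicle-treated cells as that control, the number of members called was 0 for CKI, 5 for doxorubicin and 1 for the line by CKI interaction, and the following values changed sign. Between the lines these were AREG (0.30) and HBEGF (0.40). For CKI they were ERBB2 (0.053), AREG (-0.19), EREG (-0.66) and ERRFI1 (-0.64). For doxorubicin they were EREG (-1.93), HBEGF (-1.02), TGFA (-0.40) and ERRFI1 (-1.08). For the interaction of CKI and doxorubicin they were AREG (0.66), EREG (1.15), TGFA (0.22) and ERRFI1 (1.26), and for the line by CKI interaction EREG (-0.85), HBEGF (-0.026) and ERRFI1 (-0.091). With library size alone, 4 members were called for doxorubicin, 1 for CKI plus doxorubicin compared to CKI and 4 for the interaction of CKI and doxorubicin, AREG was at 0.031 with doxorubicin, and ERBB3 (0.015) and TGFA (0.025) changed sign in CKI plus doxorubicin compared to CKI. With at least 10 counts in every library, 1 was called for CKI plus doxorubicin compared to CKI and 5 for the line by CKI interaction. Offsets for GC content and length gave 2 for the interaction of CKI and 5-FU and 1 for CKI plus doxorubicin compared to CKI, where ERRFI1 was at -0.0006, and NRG1 was at -0.26 with vehicle. The same offsets with the replicate block gave 2 and 1, with ERRFI1 at -0.0012 and NRG1 at -0.26. Leaving out 1 library at a time gave 0 to 1 members for CKI in MDA-MB-231, 1 to 2 for CKI plus 5-FU compared to 5-FU and 0 to 1 for the interaction of CKI and 5-FU. The cause of these changes was not tested. The replicate block alone moved none of the counts of members called (7 between the lines, 2 for 5-FU and 5 for CKI in A431, for example), and no comparison had all its same-numbered pairs correlated over 0.1 (the 5-FU pairs were at -0.21, 0.07 and -0.19), so the numbers were taken as names alone. In all, 201 of 217 alternative counts stayed within 1.5 times, and 2063 of the 2170 alternative fold changes kept their direction and their side of the thresholds. Another 28 small fold changes changed sign with neither value past the test. Of 90 group levels in CPM recomputed with library size alone, 34 stayed within the SD of their group and 56 moved by more. At this depth BTC in MDA-MB-231 rests on 24 to 81 counts per library, which limits its precision.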
